A study of Mus musculus with 28 samples.

Results

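Bile acids are made from cholesterol in the hepatocyte, and 10 genes of that pathway were followed here, from the first hydroxylation of the sterol to the joining of the finished acid to an amino acid: Cyp7a1, Cyp7b1, Cyp8b1, Cyp27a1, Cyp39a1, Hsd3b7, Akr1d1, Acox2, Slc27a5 and Baat. The members were chosen by name, as all probe sets annotated to one of these genes, and 16 such probe sets were found among the 45037 on the array that are not controls. A gene was represented by its probe set of highest mean over all arrays, its lead probe set, and these 10 stand among 18193 genes with a lead probe set. Liver RNA came from C3H/HeN mice, 1 mouse per array, which the methods give as female and 5 weeks old on arrival. The mice had Lieber's liquid diet with ethanol and ellagic acid (EA diet), with ethanol and trans-resveratrol (RSV diet), with ethanol alone (EtOH diet) or with water in place of ethanol (control diet), first for 1 week without a limit and then for 4 weeks at 12 g per day. Either polyphenol was taken at about 50 mg per kg body weight per day, and ethanol was in all diets but the control diet. The control diet also held more of the maltose and dextrin mixture than the ethanol diets. In a difference from control, ethanol and carbohydrate therefore cannot be told apart. Wild-type mice gave 4 arrays per diet and mice lacking the nuclear receptor CAR (Nr1i3), on the same C3H/HeN background, gave 3 per diet. The CAR-deficient strain came from another source than the purchased mice, and the methods state no separate sex or age for it.

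Synthesis has a classic route, which opens with hydroxylation of the cholesterol ring by Cyp7a1, the rate-limiting enzyme. An alternative route opens with side-chain oxidation by Cyp27a1 and goes on to the oxysterol hydroxylase Cyp7b1. Cyp39a1 hydroxylates another oxysterol, made from cholesterol in the brain. Cyp8b1 adds the hydroxyl group that makes cholic acid and so sets the mix of bile acids. In the intact liver, bile acids returning from the gut repress Cyp7a1 and Cyp8b1 through the receptor FXR and its target SHP (Nr0b2), and LRH-1 (Nr5a2) drives both genes.

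The values are those of the Distribution Free Weighted (DFW) summary on a log2 scale. DFW rescales the spread of each probe set, and it was run apart for the 2 genotypes, so a difference below is one of DFW values, not a calibrated log2 fold change, and levels were compared neither between genotypes nor between genes. Of all probe sets, 85.27% in wild-type and 79.34% in CAR-deficient mice hardly varied between arrays (standard deviation 0.01 or less) and are called compressed. All 10 lead probe sets lay above that limit in both genotypes. The lead probe sets of Cyp7b1 and Baat are of the kind marked _s_at, which can match more than 1 transcript. The second probe set of Cyp27a1 was compressed in both genotypes, and that of Baat in wild-type mice. Depth in the sense of read counts does not apply to arrays, and the number of arrays limits the precision. The hepatocyte markers averaged 13.88 to 13.95 per array in wild-type mice on the EA, RSV, EtOH and control diets, without a called shift of more than 2 of 6 markers against control. In CAR-deficient mice they averaged 16.50 to 16.59 with EA, 16.50 to 16.55 with RSV, 16.63 to 17.15 with EtOH and 16.48 to 16.59 with control, so the EtOH arrays lay above all others, with 0 of 6 markers called, and the part of this in the EtOH results of that genotype was not tested. The array of the EtOH diet, replicate 1, stood apart among CAR-deficient arrays, with a mean correlation of 0.983 to the other arrays of its genotype, against 0.989 to 0.993 for the rest. The probe set of Nr1i3 gave 8.97 ± 0.39 with EtOH and 8.68 ± 0.12 with control in CAR-deficient livers (SD, n = 3 each), and since the sources do not place it relative to the deleted part, it does not check the label.

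Promoter sequences, taken from RefSeq on build GRCm38.p6, were at hand for 5 of the 10 members (Cyp27a1, Akr1d1, Hsd3b7, Cyp8b1 and Acox2). Each runs from 250 bases before the start of transcription to 50 bases after it. They were searched on both strands for AGGTCA, the short motif bound by many nuclear receptors, and TCAAGG, the core of the site bound by LRH-1. Cyp27a1, Hsd3b7 and Cyp8b1 are shown because each passed against control with at least 1 diet in wild-type livers. Akr1d1 is shown because it alone of the 5 held the exact letters of either motif, which the capitals mark.
Cyp27a1 (chr1:74713285-74713584, plus strand): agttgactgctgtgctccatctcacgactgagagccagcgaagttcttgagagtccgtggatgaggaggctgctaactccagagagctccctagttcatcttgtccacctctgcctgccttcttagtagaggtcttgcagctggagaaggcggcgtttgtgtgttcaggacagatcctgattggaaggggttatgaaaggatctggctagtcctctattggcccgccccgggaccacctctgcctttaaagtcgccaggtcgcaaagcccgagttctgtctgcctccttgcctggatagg
Hsd3b7 (chr7:127800359-127800658, plus strand): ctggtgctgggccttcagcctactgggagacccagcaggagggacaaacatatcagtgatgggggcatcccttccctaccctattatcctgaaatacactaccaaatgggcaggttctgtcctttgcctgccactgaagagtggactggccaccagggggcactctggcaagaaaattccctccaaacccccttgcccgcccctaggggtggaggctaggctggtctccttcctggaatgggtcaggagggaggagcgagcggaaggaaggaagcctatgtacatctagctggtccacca
Cyp8b1 (chr9:121916256-121916555, minus strand): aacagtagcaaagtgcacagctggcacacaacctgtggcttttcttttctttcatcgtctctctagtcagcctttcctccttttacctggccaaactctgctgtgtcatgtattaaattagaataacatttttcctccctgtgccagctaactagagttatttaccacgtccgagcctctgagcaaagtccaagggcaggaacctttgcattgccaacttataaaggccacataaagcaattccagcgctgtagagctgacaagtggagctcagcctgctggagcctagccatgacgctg
Akr1d1 (chr6:37529923-37530222, plus strand): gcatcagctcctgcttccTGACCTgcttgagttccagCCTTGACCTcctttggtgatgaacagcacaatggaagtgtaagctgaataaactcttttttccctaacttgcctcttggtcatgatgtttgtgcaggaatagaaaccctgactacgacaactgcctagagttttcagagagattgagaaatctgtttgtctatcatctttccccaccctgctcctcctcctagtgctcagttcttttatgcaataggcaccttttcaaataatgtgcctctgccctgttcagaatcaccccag
The promoter of Akr1d1 held AGGTCA at -232 and -210 and TCAAGG at -213, all on the opposite strand. Positions are those of the leftmost base of a match, counted from the start of transcription with no position 0. The match at -213 overlaps that at -210. Of 32851 promoters of this length, 16.3% held AGGTCA and 14.4% held TCAAGG. Only these exact letters were searched, so a window without a match may hold another form of either site. The letters are a description of these windows and say nothing of binding, in them or elsewhere.

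In wild-type livers 4 members differed from control with all 3 ethanol diets. Cyp7b1 and Hsd3b7 were lower and Cyp39a1 and Cyp27a1 were higher than with the control diet, whether or not a polyphenol was added. Each comparison was made by limma over all 45037 probe sets, with Benjamini-Hochberg adjustment and a threshold of 0.05. The 3 comparisons share the 4 control arrays and are not independent of each other. Beside these members, Cyp8b1 was higher and Baat lower with the EA diet. The plot of wild-type values by diet shows each array.

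**Figure D1:**
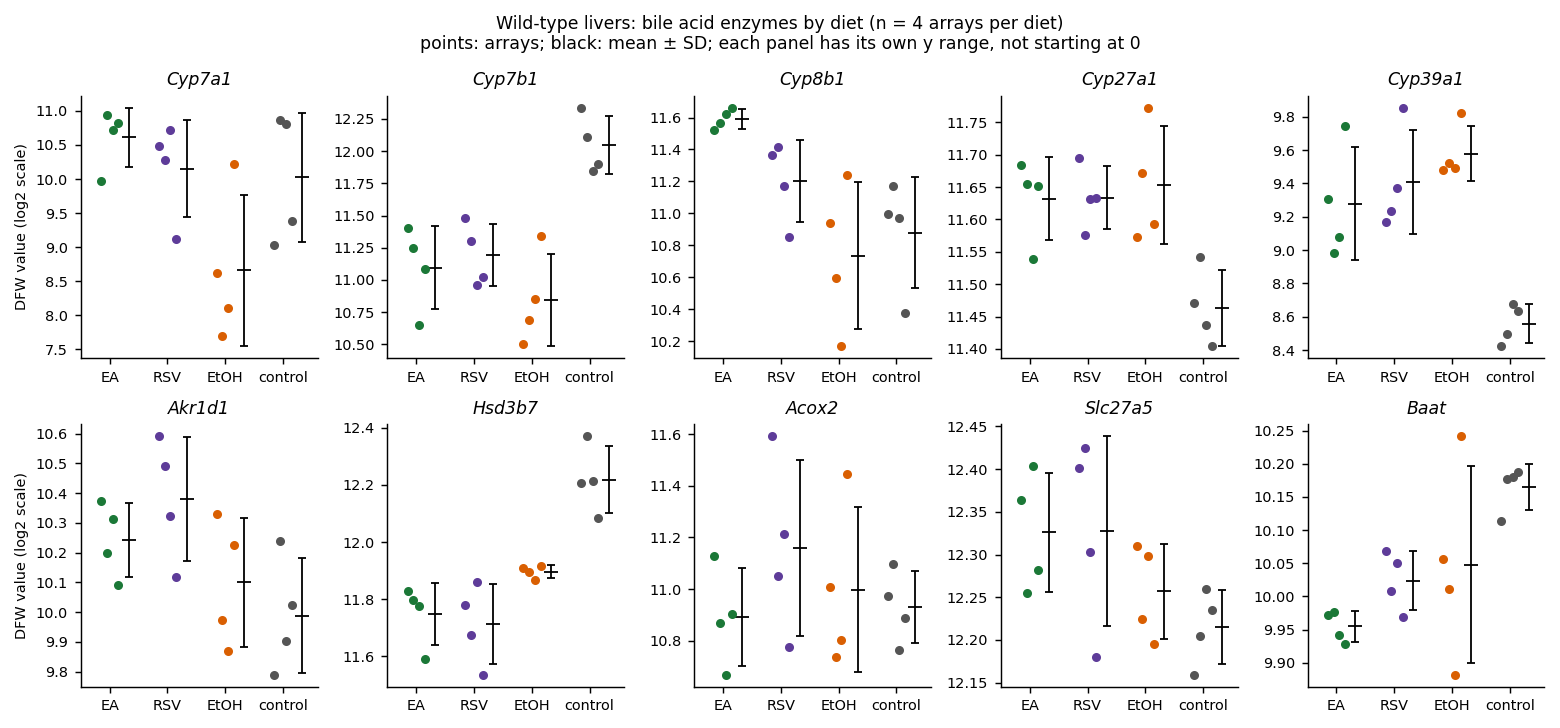
DFW values (log2 scale, own range per panel) of the lead probe set of each member in wild-type livers on the EA, RSV, EtOH and control diets, with 4 arrays per diet as points and the mean ± SD in black. The control arrays of Cyp7b1 (11.84 to 12.34) lie above all arrays of the other diets, and those of Cyp39a1 (8.42 to 8.68) below them.

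Cyp7b1, the oxysterol hydroxylase of the alternative route, read 11.40, 11.25, 10.65 and 11.08 with EA, 11.48, 11.30, 10.96 and 11.03 with RSV, 10.51, 10.69, 10.85 and 11.34 with EtOH, and 12.34, 12.11, 11.84 and 11.90 with control. Every control array was above every array of the ethanol diets, and the ethanol diets overlapped each other. The difference from control was -0.95 with EA (adjusted p = 0.00867), -0.86 with RSV (adjusted p = 0.0128) and -1.20 with EtOH (adjusted p = 0.00686), each with a standard error of 0.20. Its second probe set gave -0.89, -0.82 and -1.17 for EA, RSV and EtOH against control, all past the threshold in limma, and the third was compressed. In the order of mean level, control stood first at 12.05 and was followed by RSV at 11.19, EA at 11.10 and EtOH at 10.85, and none of these last 3 neighbours differed from the next past the threshold. The study picked Cyp7b1 on these samples, together with Cyp7a1 and Akr1d1, so their direction is no independent evidence.

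Cyp39a1, the hydroxylase of cholesterol made into an oxysterol in the brain, moved the other way. It read 9.31, 8.99, 9.08 and 9.74 with EA, 9.17, 9.23, 9.37 and 9.85 with RSV, 9.48, 9.52, 9.49 and 9.82 with EtOH, and 8.42, 8.50, 8.68 and 8.63 with control. Control was lowest, with no overlap with any ethanol diet. The differences from control were 0.72 with EA (adjusted p = 0.0162), 0.85 with RSV (adjusted p = 0.00616) and 1.02 with EtOH (adjusted p = 0.0071), with a standard error of 0.17. Both Cyp7b1 and Cyp39a1 passed against control in each of the 8 fits per comparison that left out 1 array, although Cyp7b1 lost its call for EtOH when only those 2 diets were fitted (adjusted p = 0.0561).

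Cyp27a1, the mitochondrial enzyme that opens the alternative route, averaged 11.63 ± 0.06 with EA, 11.63 ± 0.05 with RSV, 11.65 ± 0.09 with EtOH and 11.46 ± 0.06 with control (SD, n = 4 each). The shifts from control were small, 0.17 with EA (adjusted p = 0.0313), 0.17 with RSV (adjusted p = 0.0248) and 0.19 with EtOH (adjusted p = 0.0373) by limma. The EA arrays (11.54 to 11.68) overlapped those of control (11.40 to 11.54), while the RSV and EtOH arrays did not. Same-numbered EA and control arrays deviated together, and with the replicate number as a block the EA call was lost (adjusted p = 0.0609). All 3 calls were lost when arrays were centred on their medians (adjusted p = 0.0585 for EA, 0.0527 for RSV and 0.0639 for EtOH), and held in 2 (EA), 5 (RSV) and 3 (EtOH) of 8 fits without 1 array. A variance trend with a robust fit also ended the EA (adjusted p = 0.0514) and EtOH (adjusted p = 0.057) calls.

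Hsd3b7, which oxidises the ring of both routes' intermediates, was lower with every ethanol diet. It read 11.83, 11.80, 11.78 and 11.59 with EA, 11.78, 11.67, 11.86 and 11.54 with RSV, 11.91, 11.89, 11.87 and 11.92 with EtOH, and 12.21, 12.37, 12.21 and 12.08 with control. No ethanol diet overlapped control. The differences were -0.47 with EA (adjusted p = 0.00157), -0.51 with RSV (adjusted p = 0.00108) and -0.32 with EtOH (adjusted p = 0.0278), with a standard error of 0.07. The EA and RSV arrays also lay below all EtOH arrays, at mean differences of -0.15 (EA, adjusted p = 0.385) and -0.18 (RSV, adjusted p = 0.275), which limma did not call. The EtOH call against control held in 2 of 8 fits without 1 array (adjusted p between 0.0285 and 0.0725) and was lost with only those diets in the fit (adjusted p = 0.0613), while the EA and RSV calls held in all 8.

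Cyp7a1 and Cyp8b1 gave no call for EtOH against control in wild-type livers, and they are described in turn. Cyp7a1 read 9.97, 10.94, 10.73 and 10.82 with EA, 10.48, 10.28, 10.72 and 9.12 with RSV, 8.62, 7.69, 8.10 and 10.23 with EtOH, and 9.03, 10.87, 10.81 and 9.38 with control. Of the EtOH arrays, 3 were below all others and the fourth, replicate 5, lay among them. The mean difference was -1.36 for EtOH minus control (95% interval -2.64 to -0.09, adjusted p = 0.201), 1.95 for EA minus EtOH (0.68 to 3.23, adjusted p = 0.112) and 1.49 for RSV minus EtOH (0.22 to 2.76, adjusted p = 0.263). None of these passed the threshold, nor did EA minus control at 0.59 or RSV minus control at 0.13. The second probe set of Cyp7a1 gave -1.10, 1.42 and 1.08 for the same differences. The within-diet standard deviation of Cyp7a1 was 0.84.

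Cyp8b1 read 11.52, 11.57, 11.62 and 11.66 with EA, 11.37, 11.42, 11.17 and 10.85 with RSV, 10.94, 10.59, 10.17 and 11.24 with EtOH, and 11.00, 11.17, 10.97 and 10.37 with control. The 4 EA arrays were close together and above every array of the other diets. EA was 0.72 above control (adjusted p = 0.0478) and 0.86 above EtOH (adjusted p = 0.0658), and RSV was 0.32 above control (adjusted p = 0.319) and 0.47 above EtOH (adjusted p = 0.352), each with a standard error of 0.22. The call against control held in 1 of the 8 fits that left out an array, with adjusted p between 0.0473 and 0.124, and was lost when arrays were centred on their medians (adjusted p = 0.0995). EtOH itself differed from control by -0.14 (adjusted p = 0.758).

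The later enzymes moved little in wild-type livers. Baat, which joins bile acids to taurine or glycine, averaged 9.95 ± 0.02 with EA, 10.02 ± 0.04 with RSV, 10.05 ± 0.15 with EtOH and 10.16 ± 0.03 with control (SD, n = 4 each). Its difference from control was -0.21 with EA (adjusted p = 0.0254), -0.14 with RSV (adjusted p = 0.0937) and -0.12 with EtOH (adjusted p = 0.249). The EA call held in 3 of 8 fits without 1 array. Without EtOH replicate 5, its highest array, Baat also passed for EtOH (-0.18, adjusted p = 0.0221). Akr1d1, the reductase that sets the shape of the ring system, was 0.25 (EA), 0.39 (RSV) and 0.11 (EtOH) above control, with RSV closest to the threshold (adjusted p = 0.0531). The RSV difference passed with only uncompressed probe sets tested (adjusted p = 0.0187). The second probe set of Akr1d1 averaged 9.58 with EA, 9.71 with RSV, 9.53 with EtOH and 9.38 with control. Slc27a5, which activates bile acids with coenzyme A, and Acox2, the peroxisomal oxidase that shortens their side chain, gave no call, with differences from control of 0.04 to 0.11 for Slc27a5 and -0.04 to 0.23 for Acox2. Without RSV replicate 4, RSV passed against control for Akr1d1 (0.48, adjusted p = 0.0276) and Slc27a5 (0.16, adjusted p = 0.0277), and without control replicate 2 for Akr1d1 (0.48, adjusted p = 0.0335).

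Counted over the 10 members in wild-type livers, 3 were higher and 3 lower with EA, 2 higher and 2 lower with RSV and 2 higher and 2 lower with EtOH, all against control. Over all lead probe sets, 18.0% (EA), 23.8% (RSV) and 7.04% (EtOH) were called in either direction. Among the 3857 lead probe sets above the compression limit, where all members lie, the shares were 43.0%, 45.3% and 18.4%, so the members' counts for EA and RSV do not stand apart from that background. The EtOH count was not tested against its share, and it fell to 1 member with only the EtOH and control diets fitted. The median difference of the members from control was 0.14 with EA, 0.15 with RSV and -0.04 with EtOH, while the median over all lead probe sets was 4.47e-05, 4.97e-05 and 3.42e-05. Over the 6633 uncompressed probe sets, among which all lead probe sets of the members lie, the median was -0.07 with EA, -0.08 with RSV and -0.04 with EtOH.

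No member passed when EA or RSV was set against EtOH or EA against RSV in wild-type livers, and at an unadjusted p under 0.05 there were 2 members for EA against EtOH, 2 for RSV against EtOH and 0 for EA against RSV in limma. At the adjusted threshold, the shares called over all lead probe sets were 3.22%, 0.555% and 0.0165%, and 10.3% for EA against EtOH above the compression limit. Shares at the unadjusted threshold were not counted, so the unadjusted counts have no background beside them. Cyp7b1 differed from EtOH by 0.25 with EA (95% interval -0.19 to 0.69, adjusted p = 0.653) and by 0.34 with RSV (-0.10 to 0.79, adjusted p = 0.457). The 6 members outside Cyp7a1, Cyp7b1, Cyp8b1 and Hsd3b7 differed from EtOH by -0.30 to 0.14 with EA and by -0.17 to 0.28 with RSV. Between the polyphenols, given at the same dose, the largest difference was that of Cyp7a1, 0.46 for EA minus RSV (-0.81 to 1.73), and for Cyp8b1, whose EA arrays all lay above the RSV arrays, it was 0.39 (-0.08 to 0.87, adjusted p = 0.639). A p that misses the threshold does not show that the polyphenols act alike.

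Calls against EtOH depended on which probe sets and arrays were in the fit. With only uncompressed probe sets in the fit, Cyp7a1 (adjusted p = 0.0232) and Cyp8b1 (adjusted p = 0.0118) passed for EA against EtOH. That fit called 648 of its 6633 probe sets higher and 910 lower. Without replicate 5 of the EtOH diet, the same 2 members passed, with differences of 2.48 (adjusted p = 0.0366) and 1.03 (adjusted p = 0.0345).

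**Figure D2:**
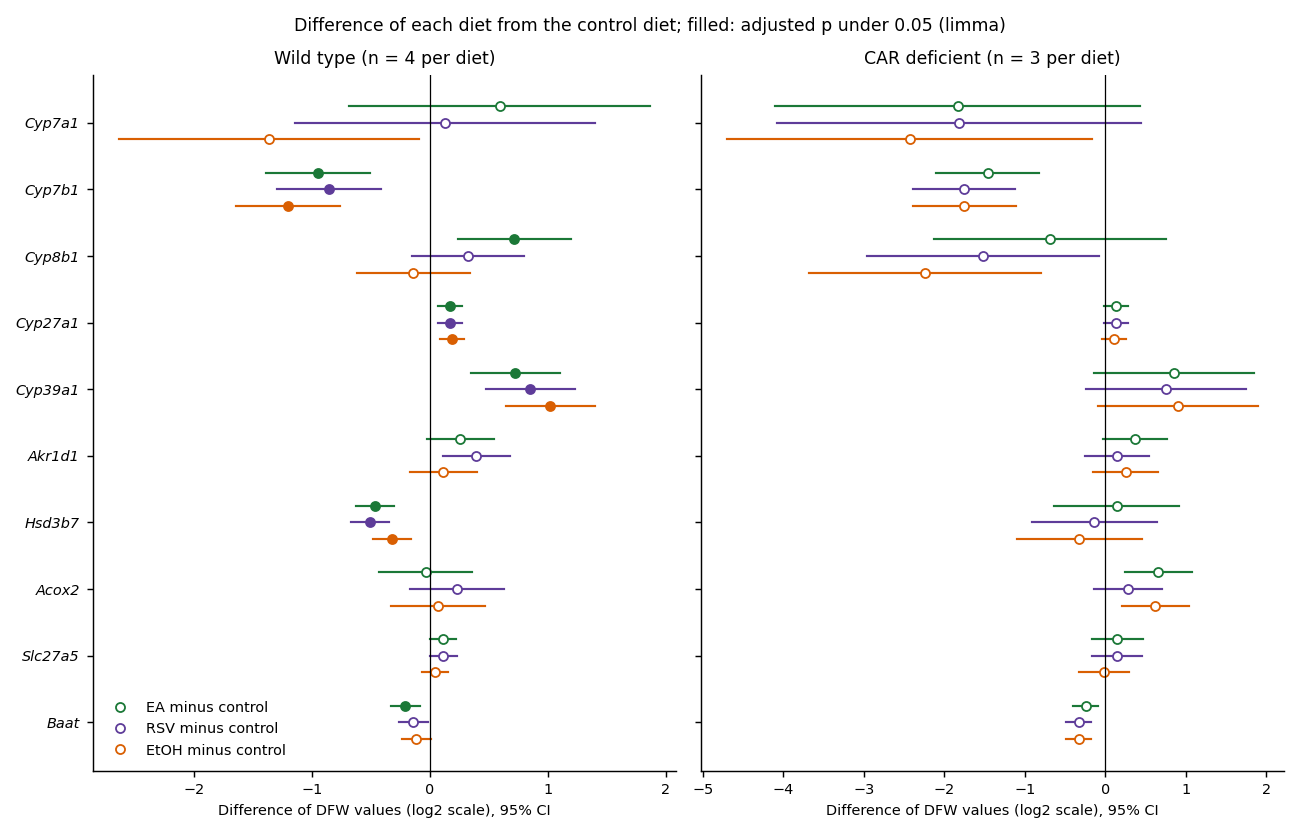
Difference of each ethanol diet from the control diet for the 10 members, as the difference of mean DFW values (log2 scale) with its 95% interval, in wild-type livers on the left and CAR-deficient livers on the right, on x axes of different range. Filled points passed the adjusted threshold of 0.05, which 6 members did with EA, 4 with RSV and 4 with EtOH in wild-type livers and 0 in CAR-deficient livers.

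The CAR-deficient arrays ask how the diets affect these enzymes without the receptor, and 0 members passed the threshold in each of the 6 comparisons. At an unadjusted p under 0.05 there were 3 members for EA, 3 for RSV and 5 for EtOH against control, 1 for EA against EtOH, and 0 for RSV against EtOH and EA against RSV, all by limma. The share of all genes at that unadjusted threshold was not counted, so these counts have no background beside them. At the adjusted threshold the background was low as well. Over all lead probe sets 0.242% (EA), 0.0715% (RSV) and 0.434% (EtOH) were called against control, and 0% in each of the other comparisons. The array set is smaller, and a p that misses the threshold here does not show that a member was unchanged.

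Cyp7b1 read 10.86, 11.06 and 11.01 with EA, 11.07, 10.21 and 10.78 with RSV, 11.21, 10.57 and 10.28 with EtOH, and 12.66, 12.48 and 12.18 with control. All 9 ethanol-fed arrays were below all 3 control arrays, at mean differences of -1.46 with EA (adjusted p = 0.0891), -1.76 with RSV (adjusted p = 0.0756) and -1.75 with EtOH (adjusted p = 0.0535), each with a standard error of 0.28. With only uncompressed probe sets tested, all 3 passed, at adjusted p of 0.0193, 0.0121 and 0.0078. The second probe set of Cyp7b1 averaged 11.05 with EA, 10.82 with RSV, 10.82 with EtOH and 12.40 with control. Without replicate 1 of the EtOH diet, the array that stood apart, the EtOH difference was -2.02 (adjusted p = 0.0515).

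**Figure D3:**
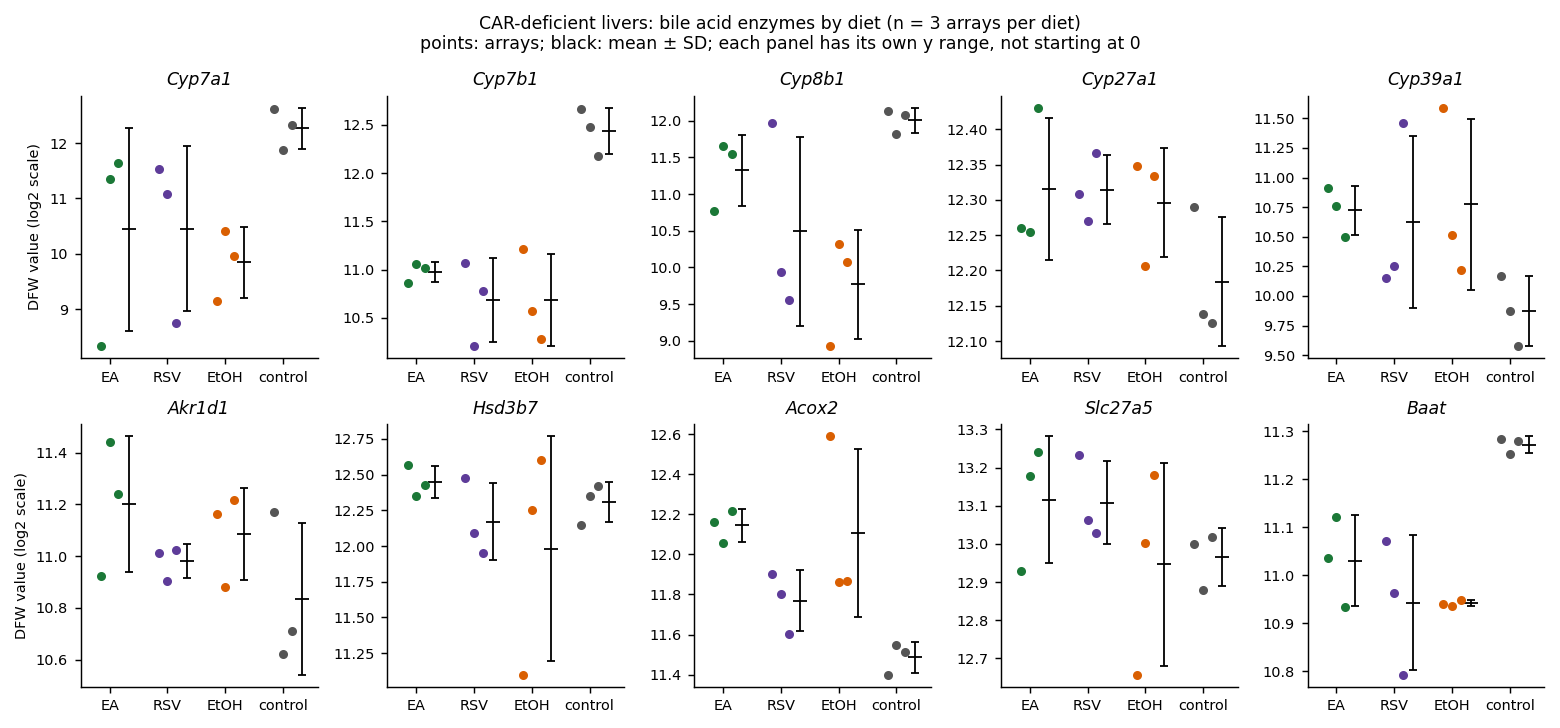
DFW values (log2 scale, own range per panel) of the lead probe set of each member in CAR-deficient livers on the EA, RSV, EtOH and control diets, with 3 arrays per diet as points and the mean ± SD in black. Control arrays of Cyp7a1 (11.87 to 12.61), Cyp7b1 (12.18 to 12.66) and Baat (11.25 to 11.28) lie above all arrays of the other diets.

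Cyp7a1 read 8.33, 11.34 and 11.64 with EA, 11.54, 11.07 and 8.75 with RSV, 9.14, 10.42 and 9.96 with EtOH, and 12.61, 11.87 and 12.33 with control. Each control array exceeded each ethanol-fed array, but the lowest EA array and the lowest RSV array lay far under the others of their diet. The difference from control was -1.83 with EA (adjusted p = 0.542), -1.82 with RSV (adjusted p = 0.606) and -2.43 with EtOH (adjusted p = 0.368). Its within-diet standard deviation was 1.24. The second probe set of Cyp7a1 averaged 9.24 with EA, 9.06 with RSV, 8.49 with EtOH and 10.83 with control. On the lead probe set, the EA difference was -0.78 without EA replicate 1 and the RSV difference -0.96 without RSV replicate 3.

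Cyp8b1 read 10.77, 11.65 and 11.55 with EA, 11.97, 9.94 and 9.56 with RSV, 8.93, 10.32 and 10.07 with EtOH, and 12.14, 11.81 and 12.07 with control. EtOH arrays were the lowest beside 2 of the RSV arrays, and no EA or EtOH array reached the control arrays. The differences from control were -0.69 with EA (adjusted p = 0.764), -1.52 with RSV (adjusted p = 0.454) and -2.24 with EtOH (adjusted p = 0.202), and EA exceeded EtOH by 1.55 (adjusted p = 0.563). Against these stand the wild-type values of 0.72, 0.32 and -0.14 for EA, RSV and EtOH minus control. The change of sign for EA and the distance between the genotypes were not tested, since the genotypes were summarised apart.

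Of the other members in CAR-deficient livers, Baat averaged 11.03 ± 0.09 with EA, 10.94 ± 0.14 with RSV, 10.94 ± 0.01 with EtOH and 11.27 ± 0.02 with control (SD, n = 3 each), without overlap of control and any ethanol diet. Its differences from control were -0.24 (EA, adjusted p = 0.21), -0.33 (RSV, adjusted p = 0.13) and -0.33 (EtOH, adjusted p = 0.105). The second probe set of Baat averaged 9.17 with EA, 9.06 with RSV, 9.10 with EtOH and 9.38 with control. Acox2 gave 12.14 ± 0.08 with EA, 11.77 ± 0.15 with RSV, 12.11 ± 0.42 with EtOH and 11.49 ± 0.08 with control, also without overlap, at differences of 0.66, 0.28 and 0.62 (adjusted p = 0.206, 0.687 and 0.223). Acox2 without replicate 1 of the EtOH diet differed by 0.38 (adjusted p = 0.177). Cyp39a1 differed from control by 0.85, 0.75 and 0.90 with EA, RSV and EtOH (adjusted p = 0.514, 0.636 and 0.45), and the RSV difference was 0.33 without RSV replicate 3 and the EtOH difference 0.49 without EtOH replicate 1. Cyp27a1 differed by 0.11 to 0.13, Akr1d1 by 0.14 to 0.37 and Slc27a5 by -0.02 to 0.15. The second probe set of Akr1d1 averaged 10.773 with EA, 10.666 with RSV, 10.975 with EtOH and 10.666 with control. EA thus lay below EtOH on it and above EtOH on the lead probe set. Hsd3b7, lower with all ethanol diets in wild-type livers, gave 0.14 with EA, -0.14 with RSV and -0.32 with EtOH, and 0.12 in place of this last value without replicate 1, its lowest array at 11.10. Against EtOH, the 7 members other than Cyp7a1, Cyp7b1 and Cyp8b1 differed by -0.05 to 0.47 with EA and by -0.34 to 0.19 with RSV.

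Cyp7a1 and Cyp8b1 varied together from mouse to mouse. Over the 16 wild-type arrays Pearson's r was 0.77 (permutation p = 0.00098, adjusted p = 0.00784) and Spearman's rho 0.71 (permutation p = 0.0024, adjusted p = 0.0096), and with diet means removed r was 0.70 (adjusted p = 0.00832) and rho 0.61 (adjusted p = 0.027). Over the 12 CAR-deficient arrays r was 0.79 (permutation p = 0.00416, adjusted p = 0.00832) and rho 0.83 (adjusted p = 0.0096), and within diets 0.72 (adjusted p = 0.00832) and 0.76 (adjusted p = 0.0142). Leaving out the 2 arrays with the most extreme Cyp7a1 values gave r of 0.62 over all wild-type arrays, 0.53 within their diets, 0.92 over all CAR-deficient arrays and 0.66 within their diets. By contrast Cyp7a1 and Nr0b2, which encodes its repressor SHP, gave r of -0.30 (rho -0.35) in wild-type and -0.06 (rho -0.16) in CAR-deficient mice, and 0.05 (rho -0.12) and -0.04 (rho -0.14) within diets, with adjusted p of 0.408 to 0.891 for r and 0.291 to 0.667 for rho. These 8 two-sided permutation tests (100000 resamples) form 1 family. The within-diet tests shuffled values over all arrays of a genotype and did not allow for the diet means removed. Their p-values are therefore likely too small, which also bears on the adjusted p of the family. Arrays of a genotype share their summary, and both genes are read from the same RNA. Such an r is not particular to this pair. By r with Cyp7a1, Cyp8b1 ranked 48 among 3857 uncompressed genes in wild-type arrays and 143 among 5175 in CAR-deficient arrays. Of the other members, Cyp39a1 (r -0.79) and Baat (0.72) came near that size in CAR-deficient arrays, while Akr1d1 (0.45) was next in wild-type arrays.

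**Figure D4:**
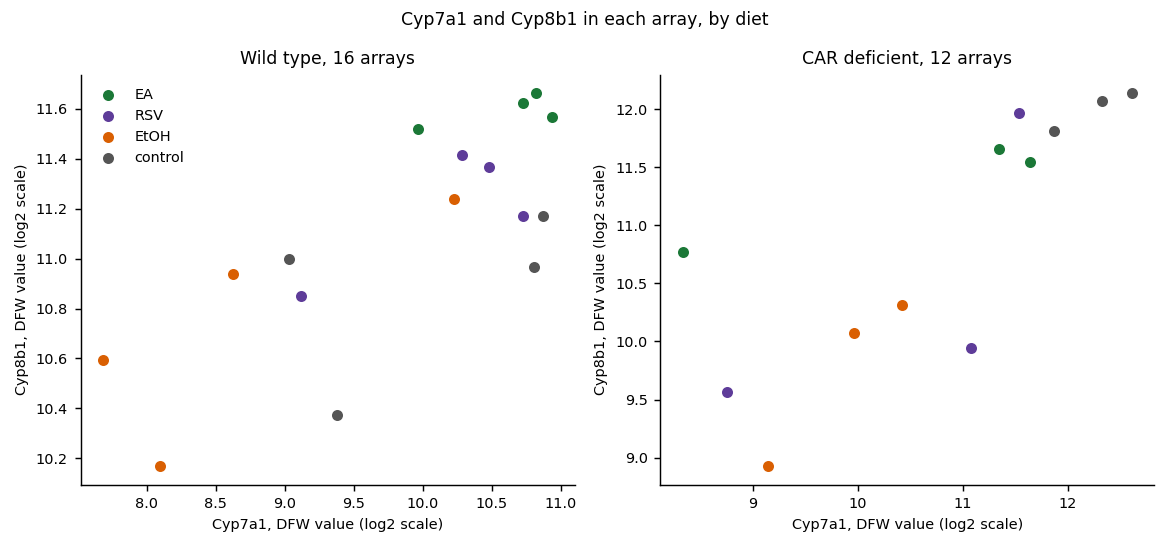
DFW values (log2 scale) of Cyp7a1 on the x axis and Cyp8b1 on the y axis in each of 16 wild-type arrays (left) and 12 CAR-deficient arrays (right), coloured by diet. High Cyp7a1 goes with high Cyp8b1 in both genotypes, with r of 0.77 and 0.79.

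Among the 3857 uncompressed genes, those most like Cyp7a1 over the wild-type arrays were Tnfsf10 (r 0.91), Cox11 (0.89), Shmt1 (0.88), Hs3st3b1 (0.85) and 2410022M11Rik (0.85). Those most like Cyp7b1 were Wwox (0.91), Scara5 (0.91), Saa2 (0.89), Saa1 (0.88) and Ginm1 (0.88), and those most like Cyp8b1 were Rasa3 (0.92), Ackr2 (0.92), Auh (0.90), Gpt2 (0.89) and Manea (0.87). Over the 12 CAR-deficient arrays, with 5175 genes, the nearest were Slc26a1 (0.95), Ghr (0.95), Hsd17b7 (0.94), Insig1 (0.94) and Timd2 (0.94) for Cyp7a1. For Cyp7b1 they were Omd (0.95), Hspa1a (0.94), Tff3 (0.92), Ginm1 (0.92) and Hsd3b5 (0.91), and for Cyp8b1 Trim7 (0.94), Phyh (0.94), Nat8 (0.92), Mpdz (0.91) and Gulo (0.91). Ginm1 stood in the list of Cyp7b1 in both genotypes. These are descriptions of the leading values among many genes.

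Of 11 measured partners in the peroxisome and in side-chain processing, from 14 listed, 2 were lower with EtOH than with control in wild-type livers, and 2 were higher with EA than with EtOH. These were the same pair. Over all lead probe sets, 7.04% were called for EtOH against control and 3.22% for EA against EtOH. Above the compression limit the shares were 18.4% and 10.3%, and the list's counts were not tested against them. Amacr, the racemase that readies the side chain for oxidation, averaged 11.26 ± 0.04 with EA, 11.08 ± 0.05 with RSV, 11.07 ± 0.02 with EtOH and 11.37 ± 0.02 with control (SD, n = 4 each). It was 0.19 higher with EA than with EtOH (adjusted p = 0.00476), 0.18 higher with EA than with RSV (adjusted p = 0.0307) and differed by -0.30 between EtOH and control (adjusted p = 7.69e-05). Slc27a2, an acyl-CoA synthetase and fatty acid carrier, was 0.19 higher with EA than with EtOH (adjusted p = 0.0126) and differed by -0.17 between EtOH and control (adjusted p = 0.0124). The study listed both on these samples. Amacr was lower than control with EA and RSV as well, together with Scp2, named here after its values were seen, whose probe set is compressed. The list's median difference was 0.00 for EA and RSV and -0.04 for EtOH against control.

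Of 16 regulators of the pathway, none was called for EtOH against control or for RSV against EtOH in wild-type livers. Between EA and EtOH 2 were called, both higher with EA, Nr1i3 (CAR itself) and the clock output factor Dbp. The share called in that comparison was 3.22% over all lead probe sets and 10.3% above the compression limit, and the count was not tested against either. Nr1i3 averaged 9.89 ± 0.16 with EA, 9.57 ± 0.16 with RSV, 9.24 ± 0.31 with EtOH and 9.41 ± 0.19 with control (SD, n = 4 each), a difference of 0.64 between EA and EtOH (adjusted p = 0.045). Dbp, which the study also listed on these samples, was 1.22 higher with EA than with EtOH (adjusted p = 0.00999). Nr0b2 was 1.09 higher with EtOH than with control (adjusted p = 0.119), at 9.51 ± 0.85 with EtOH and 8.41 ± 0.31 with control. Against control, Mafg and Dbp were higher and Fgfr4 lower with EA, and Mafg was higher and Nr1h3 lower with RSV, where Mafg, Fgfr4 and Nr1h3 are named after their values were seen. Over all lead probe sets, 18.0% (EA) and 23.8% (RSV) were called against control.

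Of 12 carriers of bile acids, Abcc3, an exporter to the blood, was higher with all ethanol diets than with control in wild-type livers, by 0.65 with EA (adjusted p = 0.000914), 0.55 with RSV (adjusted p = 0.00238) and 0.54 with EtOH (adjusted p = 0.00719). The uptake carrier Slco1a1 was lower with all 3, at differences of -0.68 (EA), -0.82 (RSV) and -0.74 (EtOH) from control (adjusted p = 0.0141, 0.00474 and 0.0205), and so was Atp8b1, a flippase of the canalicular membrane, at -0.81, -0.78 and -0.41 (adjusted p = 0.000387, 0.00048 and 0.0321). Abcc4, named after its values were seen, was also higher with EA. No carrier was called against EtOH. Over all lead probe sets in wild-type livers, 18.0% (EA), 23.8% (RSV) and 7.04% (EtOH) were called against control. The carriers' counts were not tested against these shares. In CAR-deficient livers the 3 lists held a single call, Slco1a1 at 7.02 ± 0.25 with EtOH and 12.33 ± 0.13 with control (SD, n = 3 each), a difference of -5.31 (adjusted p = 0.0293).

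Markers of other cells moved beside these results. Of 9 Kupffer cell markers, 8 with EA, 7 with RSV and 7 with EtOH were lower than with control in wild-type livers, and their mean level per array was 8.57 to 8.63 with EA, 8.54 to 8.69 with RSV, 8.56 to 8.69 with EtOH and 8.76 to 8.90 with control. In whole liver, fewer cells of a type and less RNA per cell cannot be told apart. In CAR-deficient livers no Kupffer marker was called, and the list's mean level was 8.96 to 9.21 with EA, 9.08 to 9.25 with RSV, 9.02 to 9.22 with EtOH and 9.30 to 9.50 with control. The 6 markers of pericentral hepatocytes averaged 9.91 to 10.04 with EA, 9.86 to 10.03 with RSV, 9.78 to 9.90 with EtOH and 9.72 to 9.75 with control in wild-type livers, with Oat and Slc1a2 higher and Lgr5 lower than control in all 3. Of the 4 measured periportal markers, Cyp2f2 was higher than control with EA (0.28, adjusted p = 0.0493) and RSV (0.28, adjusted p = 0.0363), while the mean level of the list overlapped between diets. Of 7 markers of sinusoidal endothelium, Lyve1 (0.71, adjusted p = 0.0144) and Clec4g (0.17, adjusted p = 0.0152) were higher with EA than with control, and Stab2 was lower with RSV (-0.39, adjusted p = 0.015) and EtOH (-0.45, adjusted p = 0.0195). The mean level of that list was 8.75 to 8.84 with EA, 8.67 to 8.71 with RSV, 8.64 to 8.67 with EtOH and 8.59 to 8.77 with control, and all 7 markers were above 0 for EA minus EtOH, with Fcgr2b called. Of 6 stellate cell markers, 2 were higher than control with EA (Des and Dcn), 3 higher (Des, Lrat and Dcn) and 1 lower (Pdgfrb) with RSV and 0 called with EtOH, and the probe sets of Des and Pdgfrb are compressed. Of 5 markers of other leukocytes, 0 were called with EA, 3 were lower with RSV (Ptprc, S100a8 and S100a9) and 1 with EtOH (Ptprc), and the probe sets of S100a8 and S100a9 are compressed. Of 5 cholangiocyte markers, Sox9 was lower with all ethanol diets and Epcam higher with EA and RSV, all on compressed probe sets. Beside these marker counts stand the shares called against control over all lead probe sets in wild-type livers, 18.0% (EA), 23.8% (RSV) and 7.04% (EtOH). The part of the markers' shifts in the members' results was not tested.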

How the data were processed

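Liver RNA of 28 mice was measured on Affymetrix whole-genome mouse arrays, 16 from wild-type and 12 from CAR-deficient mice. The deposited table holds log2 values that the authors summarised with DFW in R, separately for the genotypes, which shows in 26 rows blank only for CAR-deficient arrays and in maxima of 14.7 for wild-type and 27.2 for CAR-deficient arrays. The methods also name other summaries, which were not used here. No column of values lacked a sample (0 columns).

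Control rows (64) were removed, and the 4 diets of a genotype were fitted together with limma (R 4.3.3, lmFit and eBayes), with Benjamini-Hochberg adjustment over 45037 (wild-type) or 45011 (CAR-deficient) probe sets and a threshold of 0.05. No test crossed the genotypes. Correlations used permutation tests (scipy 1.17.1), and figures matplotlib 3.10.9. Members and lists were chosen with earlier results of these data known. All members were named, and from each of the 3 pathway lists up to 4 genes. These passed in wild-type mice for EtOH against control or a polyphenol against EtOH. Nr1i3, Nr0b2 and the 5 genes most like each of Cyp7a1, Cyp7b1 and Cyp8b1 were named as well. Other genes of the pathway lists are said to have been chosen after their values were seen. Cell type markers were named where they were called, so also after their values were seen. Each array is 1 mouse, so p-values reflect the spread between mice.

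Replicate numbers were checked for pairing. Deviations of same-numbered arrays correlated above 0.1 in every pair for EA and control in wild-type mice (0.16 to 0.57) and for EtOH and control in CAR-deficient mice (0.29 to 0.41), but for no other comparison. Over all comparisons, 12 of 21 same-numbered pairs in wild-type mice and 4 of 18 in CAR-deficient mice were above 0.1. Alternatives were quantile normalization, median centring, another variance model, filters on low and on compressed probe sets, 2 diets alone, the mean of a gene's probe sets, a replicate block and leaving out each array.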

Additional observations from a re-analysis of the deposited data

Results flagged for a closer look

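Of 40 groups of 4 wild-type arrays (a member on a diet), 2 held an array far from the other 3, and chance flags about 1 in 20 such groups. Baat read 10.11 in control replicate 1, against 10.18 to 10.19 in the other control arrays. Cyp39a1 read 9.82 in replicate 5 of the EtOH diet, against 9.48 to 9.52 in the other EtOH arrays.

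For 5 differences between diets, all arrays of the first-named diet lay on one side of the mean of the other diet in CAR-deficient livers and on the opposite side in wild-type livers. The difference between the genotypes was not tested in any of them, because the genotypes were summarised apart. Cyp8b1 differed between EA and control by -0.69 in CAR-deficient and 0.72 in wild-type livers. Hsd3b7 differed between EA and control by 0.14 in CAR-deficient and -0.47 in wild-type livers, and between EA and EtOH by 0.47 in CAR-deficient and -0.15 in wild-type livers. That 0.47 rests on EtOH replicate 1, which read 11.10, against 12.25 and 12.60 in the other CAR-deficient EtOH arrays. Without it the difference was 0.02, and the EA array at 12.35 no longer lay above the EtOH mean. Akr1d1 differed between RSV and EtOH by -0.11 in CAR-deficient and 0.28 in wild-type livers. Acox2 differed between EA and RSV by 0.38 in CAR-deficient and -0.27 in wild-type livers.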

How the results depend on the processing

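The number of members called changed with the tests around it. In wild-type livers, EtOH against control called 1 member (Cyp39a1) with only those 2 diets fitted, in place of 4. EA against EtOH called 1 (Cyp8b1) among probe sets above the median level, 2 (Cyp7a1 and Cyp8b1) among uncompressed probe sets and 1 (Cyp8b1) with the replicate block, in place of 0. Of all 22518 probe sets above the median level, 707 were then higher and 900 lower. Of all 6633 uncompressed probe sets, 648 were higher and 910 lower, and of all 45037 with the block, 359 and 316. In CAR-deficient livers, EtOH against control called 1 (Cyp7b1) with a variance trend and robust fit, among probe sets above the median level and among uncompressed probe sets, and 1 (Baat) with only those 2 diets, while EA and RSV against control called 1 each (Cyp7b1) among uncompressed probe sets, all in place of 0. The filters test fewer probe sets and refit the spread from those alone. Replicate number 5 occurs only in the wild-type EtOH diet, so the block fits that array on its own. Its changes for EtOH comparisons are therefore no separate check from leaving that array out. Other causes were not tested. With the replicate block Acox2 in wild-type livers differed by -0.078 between EtOH and control, in place of 0.068, and with the mean of its probe sets Cyp7b1 in CAR-deficient livers differed by 0.000842 between RSV and EtOH, in place of -0.00217. Where every same-numbered pair correlated above 0.1, the replicate block ended the call of Cyp27a1 for EA against control in wild-type livers (5 calls in place of 6) and changed no other call. For EtOH and RSV against control there, 2 of 3 and 2 of 4 pairs did so, and pairing was not settled. The block gave 4 calls for EtOH against control, without Cyp27a1 (adjusted p = 0.0808) and with Baat (adjusted p = 0.039). It gave 6 for RSV against control, with Akr1d1 (adjusted p = 0.0499) and Baat (adjusted p = 0.0212) added.

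Leaving out 1 array at a time gave 2 to 5 calls for EtOH against control in wild-type livers (2 without EtOH replicate 3 or 4 or control replicate 1 or 3), 3 to 5 for EA against control (3 without EA replicate 4 or control replicate 3 or 4), 3 to 6 for RSV against control (3 without RSV replicate 1 or control replicate 3 or 4, 6 without RSV replicate 4) and 0 to 2 for EA against EtOH (2 without EtOH replicate 5). Signs turned for wild-type Cyp8b1 (-0.31 to 0.046) and Acox2 (-0.082 to 0.16) between EtOH and control, Acox2 between EA and control (-0.12 to 0.036) and Cyp7a1 between RSV and control (-0.20 to 0.47). In CAR-deficient livers they turned for Hsd3b7 (-0.63 to 0.12) and Slc27a5 (-0.14 to 0.13) between EtOH and control, Cyp7a1 between EA and EtOH (-0.00573 to 1.65), and Cyp7b1 (-0.21 to 0.26) and Cyp8b1 (-0.0190 to 1.18) between RSV and EtOH. None of these was called. The signs listed are for differences of each member from control, and of Cyp7a1, Cyp7b1, Cyp8b1 and wild-type Hsd3b7 from EtOH. Among the other 46 differences between diets, 45 of 320 values without 1 array turned sign, and 7 of 368 with the other alternatives. No call was gained among those 46.

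Quantile normalization moved the split of calls over all probe sets, to 11768 higher and 3466 lower for EtOH against control in wild-type livers in place of 991 and 1510, to 14693 and 9495 for EA in place of 2729 and 3669, and to 17263 and 7736 for RSV in place of 4084 and 4801. With 3 or 4 mice per diet, and values whose spread DFW rescales, calls near the threshold depend on single arrays.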
